A study of Mus musculus with 16 samples.

Results

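The genes described here are 10 that encode microtubule and synapse proteins of neurons: Mapt, Map1b, Map2, Tubb3, Dcx, Dpysl3, Stmn2, Gap43, Syt1 and Dlg4. They were taken as a named set, and a probe set (the group of array spots that reads 1 transcript) was used only where the platform annotation gave it 1 of these symbols and no other. Every probe set of Mapt and Map1b was kept, and for each other gene the one with the highest mean signal, which gave 14 of the 24 probe sets of these genes, out of 22626 on the array and 12393 genes. Of the 14, 9 (from 7 genes) reached the brightness needed for testing and 5 did not, and all 14 are described.

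The samples were 16 cultures of adult mouse neural stem cells, 1 Affymetrix array each, in 8 groups of 2. All carried Tlx(f/Z), a genotype of the orphan nuclear receptor Tlx (Nr2e1) whose letters the labels do not explain. The groups were Tlx(f/Z;CreER) cultures with 4OH-TM (4-hydroxytamoxifen) or vehicle, and Tlx(f/Z) cultures without Cre with 4OH-TM or vehicle, each collected at 36 h or 60 h. CreER joins the recombinase Cre to part of the estrogen receptor, and 4OH-TM activates it, so the set with both CreER and 4OH-TM is the one in which an f allele could be deleted. The promoter that drove CreER and the number of animals or lines behind the cultures are not given in the sources used here. Cre status and culture origin therefore cannot be told apart, and p-values measure only the spread between these samples.

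Neurons are built around microtubules. Tau, the product of Mapt, and the MAP1B and MAP2 proteins bind and stabilise them, class III beta-tubulin (Tubb3) is part of the polymer, and doublecortin (Dcx) marks migrating young neurons. CRMP4 (Dpysl3), stathmin-2 (Stmn2) and GAP-43 act in growing axons, synaptotagmin-1 (Syt1) is the calcium sensor of vesicle release, and PSD-95 (Dlg4) is the scaffold of excitatory postsynaptic sites. Several of these genes are already transcribed in progenitors or glia, so a signal from 1 of them in a stem cell culture does not identify a neuron.

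Signals are MAS5 values on a linear scale without unit, and the probe sets of different genes have different sensitivities, so levels are compared only within a probe set. All changes were computed as differences of log2(signal + 16), so those of dim probe sets are understated, and were tested with limma across 13576 probe sets with Benjamini-Hochberg adjustment at 0.05. Median signal per array lay between 92.2 and 132.6. The Esr1 probe set gave 279 to 444 in the 8 CreER arrays and 11.7 to 32.2 in the 8 arrays without Cre, whereas Nr2e1 had 0 probe sets under its symbol and the targeted gene was not checked. Of the neuron markers (Rbfox3, Elavl3, Elavl4, Nefl, Nefm, Snap25, Syp, Neurod1), only Syp, 1 of 8, reached the tested range, against 8 of 10 stem and progenitor markers, among them Nes, Sox2, Vim and Fabp7. The neuron marker signals summed to 201 to 288 in CreER arrays and 114 to 199 in arrays without Cre, a gap in which Nefm has the greatest share (its values stand with Gap43 below). In CreER cultures it was 201 to 236 with 4OH-TM and 212 to 288 with vehicle. In bulk RNA, fewer cells of a type and less RNA per cell cannot be told apart.

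**Figure D1:**
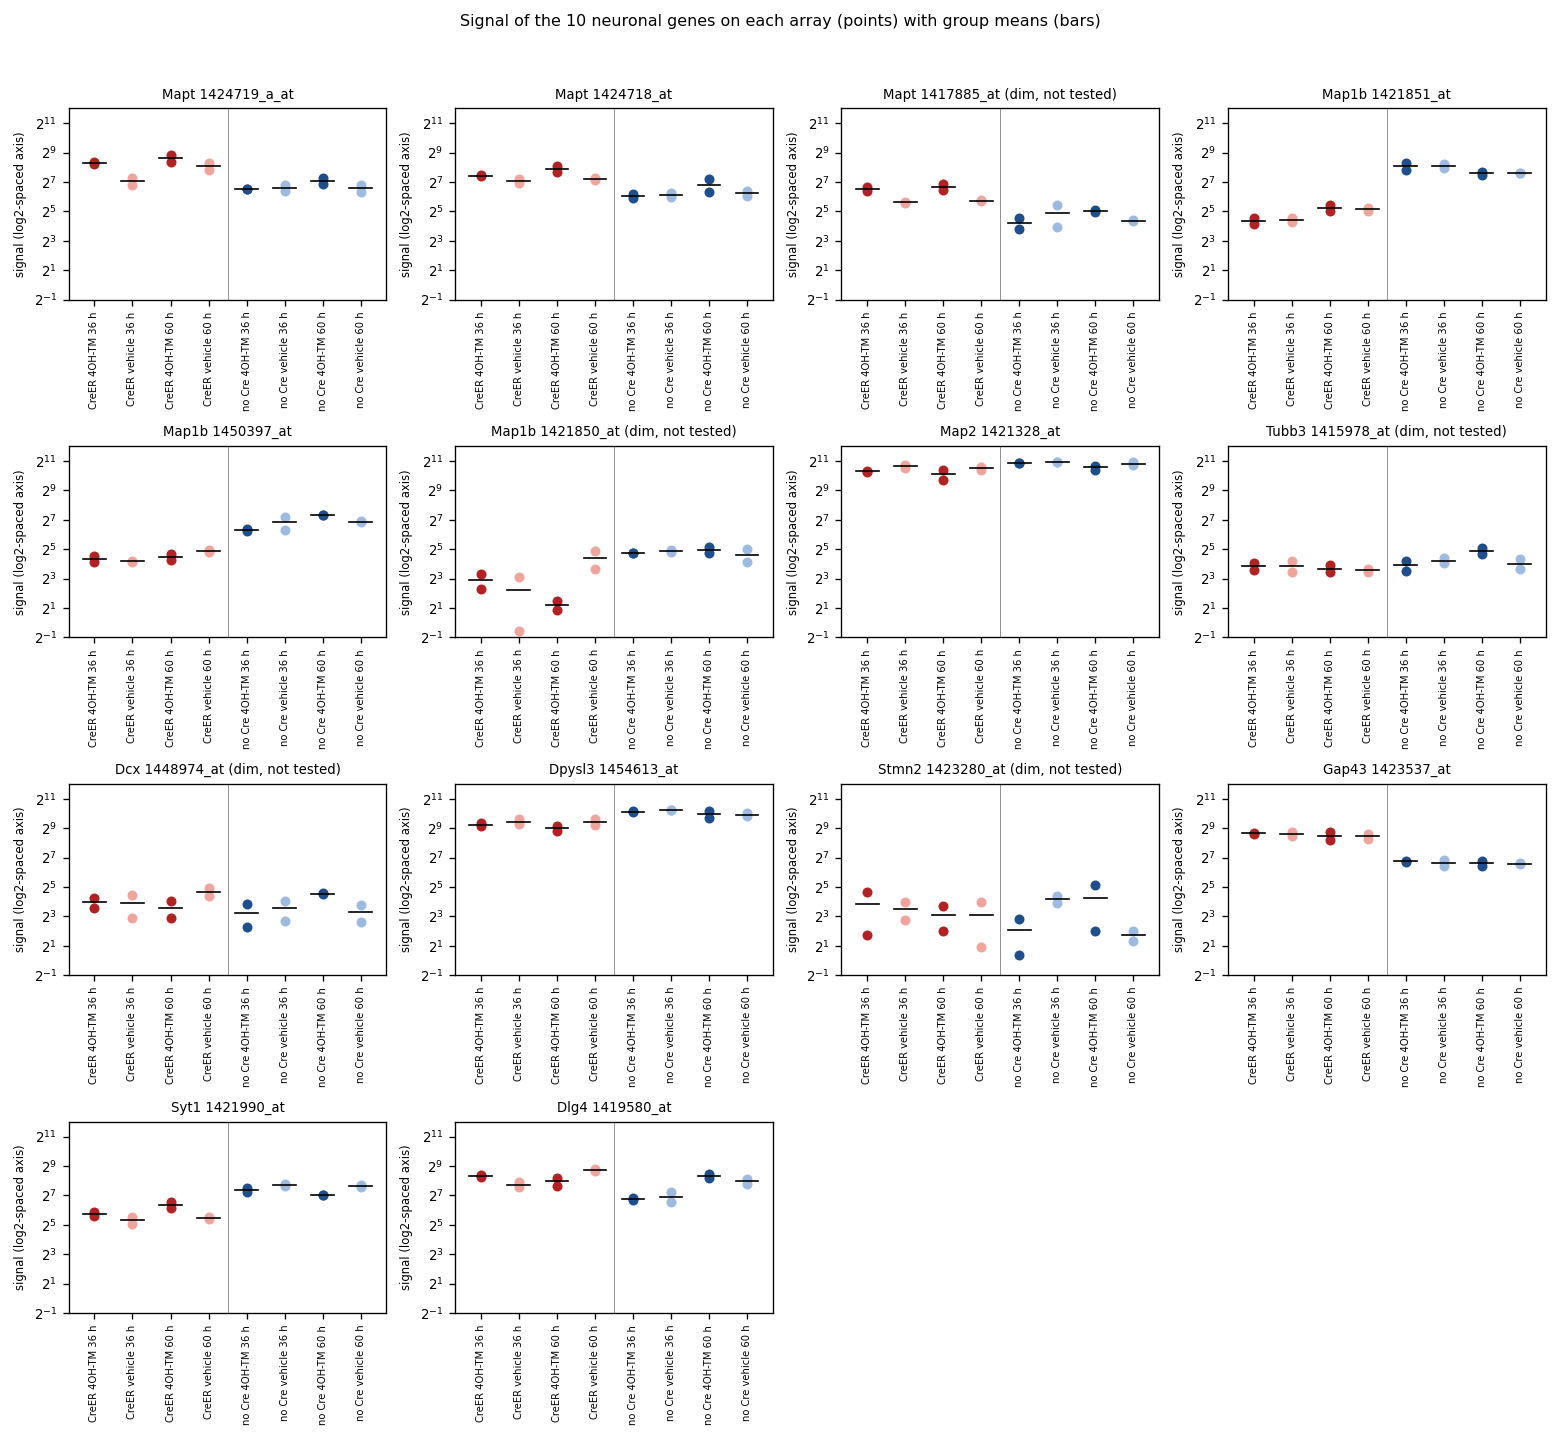
Signal (log2-spaced axis, no unit) of the 14 probe sets on each of the 16 arrays, 1 panel per probe set, with points for arrays and bars for the means of the 2 arrays of a group. Map1b and Syt1 lie lower in the CreER groups on the left of each panel than in the groups without Cre on the right, Gap43 and Mapt lie higher, and Tubb3, Dcx and Stmn2 stay at or below 34.4 on all arrays.

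The first comparison, within CreER cultures, set 4OH-TM against vehicle. With the times pooled, Mapt was higher on both of its tested probe sets, Syt1 was higher and Map2 was lower with 4OH-TM. Gap43, Map1b, Dpysl3 and Dlg4 did not pass the threshold over both times, and Dlg4 fell at 60 h alone. Of the 9 probe sets tested, 3 were called higher and 1 lower, against 10.7% of all probe sets tested called in either direction (3.17% higher, 7.57% lower). Treated and vehicle arrays of CreER cultures did not overlap for 6.77% of all probe sets on the array over both times. With only 2 arrays against 2, this held for 40.8% at 36 h and 34.6% at 60 h, so a lack of overlap at 1 time is common. Some markers of other cell types were called in the same comparison. S100b, an astrocyte marker that oligodendrocyte progenitors also express, averaged 453 with 4OH-TM and 203.5 with vehicle (change 1.05, SE 0.14, adjusted p = 4.01e-11), and of 3 tested astrocyte markers it was the 1 called. Of 8 tested stem and progenitor markers 0 rose and 2 fell, Pax6 by 0.40 (adjusted p = 0.0469) and Slc1a3 by 0.35 (adjusted p = 0.0463) on the log2 scale. The difference of responses, CreER minus no Cre, was called for S100b (1.37, limma adjusted p = 4.62e-09). It was not called for Pax6 (−0.32, adjusted p = 0.663) or Slc1a3 (−0.14, adjusted p = 0.92). The part of these markers in the changes of the neuronal genes was not tested.

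Mapt had the largest change of the set over both times and at 36 h, though not at 60 h. Probe set 1424719_a_at gave 326 and 299 in CreER cultures with 4OH-TM at 36 h, against 113 and 154 with vehicle. At 60 h it gave 322 and 459 with 4OH-TM, against 309 and 222 with vehicle. The arrays did not overlap at either time, but 1 of the 2 vehicle arrays at 60 h (309) lay within the range of the treated ones at 36 h. Over both times the level averaged 351 ± 72.5 with 4OH-TM and 199 ± 85.7 with vehicle (SD, n = 4 each), a log2 change of 0.84 (SE 0.15, limma adjusted p = 2.16e-06). At 36 h the change was 1.15 (SE 0.21, adjusted p = 2.76e-05) and Mapt was the only member called, against 2.59% of all probe sets. This 36 h call was lost with no filter. At 60 h the change was 0.53 (SE 0.21, adjusted p = 0.116), and the test of 60 h against 36 h for this response was not passed (difference −0.62, SE 0.30, adjusted p = 0.765).

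The second tested Mapt probe set, 1424718_at, gave 174 and 165 with 4OH-TM against 124 and 146 with vehicle at 36 h, and 203 and 276 with 4OH-TM against 154 and 138 with vehicle at 60 h. All 4 treated arrays lay above all 4 vehicle arrays. Its change over both times was 0.48 (SE 0.16, adjusted p = 0.0288). The third, 1417885_at, was too dim on average to be tested. It gave 82.8, 99.9, 87.9 and 114 in the 4 CreER cultures with 4OH-TM, against 48.9, 48.4, 53.5 and 51.5 in the 4 with vehicle. These arrays too did not overlap, and with no brightness filter its change was 0.74 (SE 0.19, adjusted p = 0.044). The 3 probe sets of this gene thus gave the same direction at both times. Over both times, the call of 1424719_a_at was kept under all 10 other settings tried and without each of the 8 arrays in turn, whereas that of 1424718_at was lost with no filter and without any 1 of 5 arrays.

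Syt1 was dim in CreER cultures. It gave 47.3 and 58.9 with 4OH-TM against 47.1 and 33.7 with vehicle at 36 h, and 70.8 and 93.4 with 4OH-TM against 46.4 and 42.4 with vehicle at 60 h. The treated arrays lay above the vehicle arrays at both times, with little between them at 36 h. The change was 0.49 over both times (SE 0.16, adjusted p = 0.0284) and 0.69 at 60 h (SE 0.23, adjusted p = 0.0443), where 1 member was called higher and 1 lower, against 6.53% of all probe sets (1.89% higher, 4.64% lower). The call over both times was lost with no filter and with a fit on these 8 arrays alone, and without any 1 of 4 arrays. At 60 h it was also lost with the actin ratio as a covariate and with a replicate block.

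Map2, whose protein is a marker of dendrites, had signals of 1199.5 and 1295 with 4OH-TM against 1449.6 and 1697 with vehicle at 36 h, and 852 and 1348 with 4OH-TM against 1569 and 1351 with vehicle at 60 h. All treated arrays lay below all vehicle arrays, narrowly at 60 h, and the change was −0.38 (SE 0.13, adjusted p = 0.0292). The other Map2 probe set changed by −0.22 (SE 0.13, adjusted p = 0.297), with overlapping arrays. Leaving out the CreER 4OH-TM 60 h replicate 1 array reduced the change to −0.22, and the call was lost without any 1 of 5 arrays, with no filter, with no mean-variance trend and in a fit on these 8 arrays alone (adjusted p up to 0.118).

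Dlg4 ran in opposite directions at the 2 times. At 36 h it gave 337 and 297 in CreER cultures with 4OH-TM, against 186 and 241 with vehicle, a change of 0.55 that was not called (SE 0.20, adjusted p = 0.138). At 60 h it gave 294 and 198 with 4OH-TM, against 441 and 404 with vehicle, and fell by 0.77 on the log2 scale (SE 0.20, adjusted p = 0.00545). Treated and vehicle arrays did not overlap at either time, the treated ones being higher at 36 h and lower at 60 h. The 5′ to 3′ ratio of the actin control, a measure of RNA quality, separated the same arrays in the same directions. It was 0.825 and 0.789 with 4OH-TM against 0.773 and 0.716 with vehicle at 36 h, and 0.841 and 0.7195 with 4OH-TM against 0.882 and 0.862 with vehicle at 60 h. The difference between the responses, 60 h minus 36 h, was −1.31 (SE 0.29, adjusted p = 0.00119), the only member called in that test, against 0.81% of all probe sets. The fall at 60 h was lost without the CreER 4OH-TM 60 h replicate 2 array (change −1.03 to −0.50 over the 4 arrays left out in turn) or the CreER vehicle 60 h replicate 1 array. With no filter and in a fit on the compared arrays alone, the fall at 60 h was not called either. The difference between times was not called after median scaling (−1.16, adjusted p = 0.0521) or with the actin ratio as a covariate (−1.07, adjusted p = 0.111). It was also lost after quantile normalization with or without the replicate block, and with no filter.

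The growth-associated genes gave smaller changes. Gap43 gave 392 and 405 with 4OH-TM against 359.9 and 428 with vehicle at 36 h, and 296 and 417 with 4OH-TM against 382 and 308 with vehicle at 60 h. Its arrays overlapped at both times, and the change was 0.03 (SE 0.15, adjusted p = 0.94). Dpysl3 gave 566 and 646 with 4OH-TM against 609 and 777 with vehicle at 36 h, and 447 and 576 with 4OH-TM against 773 and 598 with vehicle at 60 h. Its change of −0.30 (SE 0.14, adjusted p = 0.151) was not called, although it was after median scaling (−0.25, adjusted p = 0.00836) and quantile normalization (−0.21, adjusted p = 0.00549). Both tested Map1b probe sets lay between 17.4 and 43.9 in these cultures with either treatment, with changes of 0.02 and −0.08 (SE 0.17 and 0.18).

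Cultures without Cre show what 4OH-TM did in the absence of the recombinase. None of the 9 tested probe sets was called there by limma (0 of 9, with 1 of 9 at an unadjusted p under 0.05), against 0.214% of all probe sets. The one below the unadjusted threshold was Syt1. It gave 181 and 151 with 4OH-TM against 222 and 200.2 with vehicle at 36 h, and 132 and 130.0 with 4OH-TM against 188 and 210.4 with vehicle at 60 h. All 4 treated arrays lay below all 4 vehicle arrays (1.89% of all probe sets did not overlap in this comparison), and the change was −0.43 (SE 0.16, adjusted p = 0.697).

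The difference between the 4OH-TM responses, CreER minus no Cre, was therefore largest for Syt1, at 0.93 (SE 0.23, adjusted p = 0.00632). It was the 1 member called, against 1.88% of all probe sets, and the call was lost with no filter. The difference combines a change of 0.49 in CreER cultures with one of −0.43 in cultures without Cre. The same difference for Mapt was 0.66 on 1424719_a_at (SE 0.21, adjusted p = 0.0733), below the threshold as deposited and past it after median scaling (0.64, adjusted p = 0.0191), and 0.28 on 1424718_at (SE 0.22, adjusted p = 0.794). For Map2 it was −0.21 (SE 0.18, adjusted p = 0.824), so the fall of Map2 was not shown to be specific to cultures with the recombinase. In cultures without Cre, Mapt 1424719_a_at gave 90.2, 91.1, 155 and 114 with 4OH-TM and 83.7, 112, 109.6 and 79.9 with vehicle, the 36 h arrays first. These ranges overlapped.

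**Figure D2:**
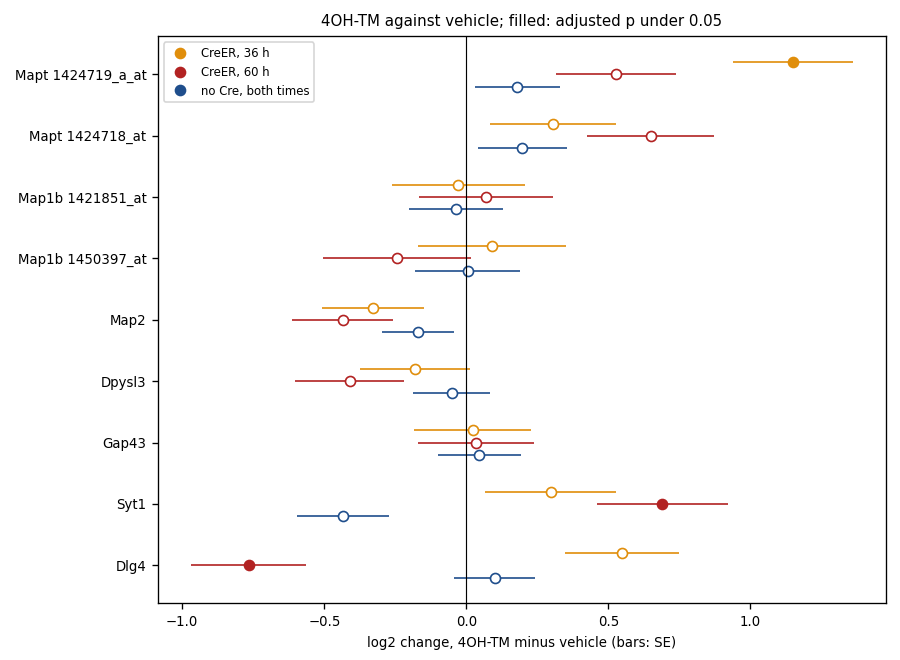
Log2 change with 4OH-TM against vehicle for the 9 tested probe sets, in CreER cultures at 36 h and 60 h and in cultures without Cre over both times. Points are limma estimates, bars are standard errors, and filled points have an adjusted p under 0.05: Mapt at 36 h (1.15), Syt1 at 60 h (0.69) and Dlg4 at 60 h (−0.77).

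Cultures with and without CreER differed far more than treated and untreated ones. Map1b and Syt1 were much lower in CreER cultures, Gap43 and Mapt were higher, and Dlg4, Dpysl3 and Map2 differed less. All 9 tested probe sets were called under 4OH-TM (4 higher, 5 lower) and under vehicle (4 higher, 5 lower). Of all probe sets, 37.4% were called under 4OH-TM (8.65% higher, 28.8% lower) and 34.8% under vehicle (7.73% higher, 27.1% lower). With shares this high over the whole array, a call says little about a member, and the sizes are given below. Both Map1b probe sets were below the brightness limit, a mean signal of about 51.1, in every CreER array and entered the test through the arrays without Cre. They had to differ to be tested, so their calls are no support, and their values with no filter are given instead. Syt1 was below the limit in most CreER arrays, although its mean signal there, 55.0, was not. Its values with no filter are given too. Stem and astrocyte markers differed as well. Under vehicle, of 8 tested stem and progenitor markers 1 was higher and 4 lower in CreER cultures, among them Nes (−0.83), Pax6 (−0.64) and Slc1a3 (−0.47), and of 3 astrocyte markers 1 was higher and 2 lower, Gja1 (−2.04) and S100b (−1.48). Under 4OH-TM the counts were 1 higher and 3 lower for stem markers and 0 higher and 1 lower (Gja1) for astrocyte markers. Gja1 averaged 34.5 ± 7.06 in CreER arrays, below the brightness limit, and 162 ± 18.7 without Cre (SD, n = 8 each). Like Map1b it entered the test through the arrays without Cre, so its calls are no support. The part of these markers in the differences below was not tested.

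Map1b lay furthest apart between the genotypes. Its probe set 1421851_at gave 17.7, 27.9 and 43.9 as lowest, median and highest signal in the 8 CreER arrays, against 182, 215 and 311 in the 8 arrays without Cre. The second, 1450397_at, gave 17.4, 21.3 and 30.4 in CreER arrays, against 73.8, 116 and 159 without Cre. On both, the brightest CreER array lay far below the dimmest array without Cre. The log2 differences under vehicle were −2.51 (with no filter SE 0.16, adjusted p = 7.85e-09) and −1.70 (SE 0.17, adjusted p = 2.72e-06), and under 4OH-TM −2.45 and −1.79. The CreER signals are all below the brightness limit, so these sizes are less certain than the direction. The third, 1421850_at, was too dim to be tested and its arrays overlapped, with 0.688, 6.81 and 29.1 in CreER arrays against 17.1, 27.2 and 35.6 without Cre. With no filter its difference was −0.66 under vehicle (SE 0.19, adjusted p = 0.0213), the same direction as the brighter probe sets.

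Syt1 gave 33.7, 47.2 and 93.4 in CreER arrays as lowest, median and highest signal, against 130.0, 184 and 222 in arrays without Cre. The arrays did not overlap, and the difference was −1.92 under vehicle (with no filter SE 0.15, adjusted p = 1.01e-07) and −0.996 under 4OH-TM (SE 0.15, adjusted p = 1.5e-04). The narrower gap under 4OH-TM is the same quantity as the difference of responses above. A second Syt1 probe set, just under the brightness limit, gave 20.3 to 39.8 in CreER arrays and 62.3 to 117 without Cre.

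The promoters of Map1b and Syt1 are shown because these genes had the lowest levels in CreER cultures relative to cultures without Cre. They are RefSeq entries of assembly GRCm38.p6, 250 bases before to 50 after an annotated start, written on the gene's strand. Of the 10 members, 6 were searched (Map1b, Map2, Tubb3, Dcx, Syt1, Dlg4), with 10 entries in all. Mapt, Gap43 and Stmn2 had no entry. Dpysl3 was not searched, so the matches below say nothing about its promoter. Capitals mark TATAAA (Map1b, 1 match) and CCAAT or its reverse complement ATTGG (Syt1, 2 matches), searched on both strands. Another Syt1 entry, chr10:109009062-109009361, is not printed and had 0 CCAAT matches.
Map1b, chr13:99516553-99516852, minus strand: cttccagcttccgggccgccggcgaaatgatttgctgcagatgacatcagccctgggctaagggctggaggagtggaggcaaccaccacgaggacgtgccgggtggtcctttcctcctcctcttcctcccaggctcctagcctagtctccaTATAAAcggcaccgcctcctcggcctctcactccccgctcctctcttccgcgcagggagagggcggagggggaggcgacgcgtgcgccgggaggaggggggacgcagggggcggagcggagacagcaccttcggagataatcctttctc
Syt1, chr10:109010926-109011225, minus strand: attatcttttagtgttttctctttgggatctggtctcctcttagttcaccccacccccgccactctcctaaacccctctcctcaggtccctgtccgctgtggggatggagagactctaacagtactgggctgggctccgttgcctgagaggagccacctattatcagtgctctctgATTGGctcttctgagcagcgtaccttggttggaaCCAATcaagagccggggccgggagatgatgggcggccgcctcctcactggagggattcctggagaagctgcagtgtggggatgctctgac
CCAAT on either strand was found in 37.4% of the 32851 promoters of this length and TATAAA in 13.6%. The half-site AAGTCA, the core of the sequence bound by Tlx, was found in 15.1% of promoters on either strand. It had 0 matches in the 10 entries of members that were used. The 2 motifs do not overlap in these windows, and Map1b and Syt1 share neither of them.

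Gap43 ran the other way. It gave 296, 387 and 428 as lowest, median and highest signal in CreER arrays, against 84.2, 101 and 113 in arrays without Cre. The arrays were far apart, and the difference was 1.75 under vehicle (SE 0.15, adjusted p = 1.61e-31) and 1.73 under 4OH-TM. Mapt was also higher, by 0.87 on 1424719_a_at and 0.82 on 1424718_at under vehicle (SE 0.15 and 0.16), and by 1.52 and 1.10 under 4OH-TM. The arrays of the genotypes overlapped on both, with lowest CreER signals of 112.5 and 123.5 against highest signals of 155 and 148 without Cre. Its dim probe set did not overlap, at 48.4 to 114 in CreER arrays and 14.1 to 43.7 in arrays without Cre. Among the neuron markers, Nefm, below the brightness limit, averaged 69.3 ± 18.7 in CreER arrays and 6.57 ± 3.83 in arrays without Cre (SD, n = 8 each), and Syp 67.8 ± 14.2 and 65.1 ± 11.2. Of the other markers, all below the limit, Elavl4 ran the other way with 34.0 in CreER arrays and 40.8 without Cre, Nefl (7.18 and 5.998) and Snap25 (2.26 and 2.49) were at the bottom of the range, and Elavl3 (23.2 and 12.5), Neurod1 (19.8 and 12.7) and Rbfox3 (12.6 and 8.62) were dim in both. The part of neuron content in the Gap43 and Mapt differences was not tested.

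The other members differed less. Dlg4 was higher by 0.75 under vehicle (SE 0.14, adjusted p = 2.19e-06) and 0.54 under 4OH-TM, although its arrays overlapped. Dpysl3 gave 447, 603 and 777 in CreER arrays against 836, 1111 and 1200.5 without Cre, a difference of −0.64 under vehicle (SE 0.14, adjusted p = 2.33e-05). Its other tested probe sets did not show this, with 0.15 (SE 0.14) and −0.03 (SE 0.17), so the gene's direction depends on the probe set. Map2 was lower by 0.31 under vehicle (−0.31, SE 0.13, adjusted p = 0.0451) and by 0.52 under 4OH-TM (−0.52, adjusted p = 2.82e-04), and the vehicle call was lost after median scaling (−0.13, adjusted p = 0.102).

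**Figure D3:**
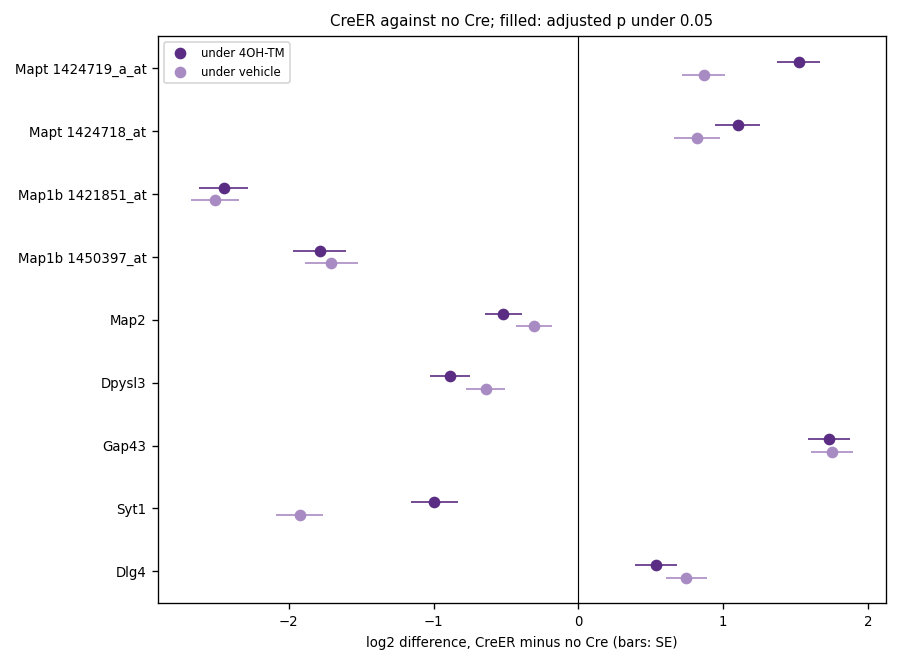
Log2 difference, CreER minus no Cre, for the 9 tested probe sets under 4OH-TM and under vehicle over both times. Points are limma estimates and bars are standard errors, all filled because all have an adjusted p under 0.05. Map1b (−2.51 and −1.70 under vehicle) and Gap43 (1.75) hardly differ between treatments, whereas Syt1 lies at −0.996 under 4OH-TM and −1.92 under vehicle.

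The order of the 8 groups differed from gene to gene. For Gap43 the 4 CreER groups, 345 to 399 on average, lay above the 4 groups without Cre, 96.1 to 106, and neighbours within each set of 4 overlapped. For Syt1 the order was led by the 2 vehicle groups without Cre (211 ± 15.2 at 36 h and 199 ± 16.1 at 60 h, overlapping), then the 4OH-TM groups without Cre (166 ± 20.9 at 36 h and 131 ± 1.35 at 60 h). Below them came CreER with 4OH-TM at 60 h (82.1 ± 16.0) and 36 h (53.1 ± 8.20) and CreER with vehicle (44.4 ± 2.83 at 60 h and 40.4 ± 9.47 at 36 h, overlapping; SD, n = 2 in each group). Mapt 1424719_a_at was highest in CreER with 4OH-TM at 60 h (390.2 ± 96.5), which overlapped CreER with 4OH-TM at 36 h (312 ± 19.1), which overlapped CreER with vehicle at 60 h (265 ± 61.4; SD, n = 2 each). CreER with vehicle at 36 h (133.3 ± 29.4) overlapped 4OH-TM without Cre at 60 h (134 ± 29.0; SD, n = 2 each). It lay narrowly above the other groups without Cre, 90.7 to 97.7 on average.

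Time was compared as 60 h against 36 h within each genotype, over both treatments. In CreER cultures 2 of 9 probe sets were called higher and 0 lower, against 5.14% of all probe sets called (1.93% higher, 3.21% lower). They were Mapt 1424719_a_at and Map1b 1421851_at. This Mapt probe set averaged 328 ± 97.8 in the 60 h arrays and 223 ± 105 in the 36 h arrays (SD, n = 4 each). Its change was 0.60 (SE 0.15, limma adjusted p = 0.00256), although the arrays overlapped, at 222 to 459 and 113 to 326. Mapt 1424718_at, not called, averaged 193 ± 62.3 at 60 h and 152 ± 22.5 at 36 h. The dim Mapt 1417885_at, not tested, averaged 76.7 ± 29.9 and 70.0 ± 25.6. Without the CreER vehicle 36 h replicate 1 array the Mapt call was lost (adjusted p = 0.0549). Map1b gave 32.7, 43.9, 38.0 and 33.0 at 60 h and 23.0, 17.7, 19.1 and 23.0 at 36 h. The arrays of the 2 times did not overlap, which held for 3.25% of all probe sets, all are near the bottom of the array's range, and the change of 0.53 (SE 0.17, adjusted p = 0.0356) was lost without any 1 of 7 arrays and with no filter (adjusted p = 0.14). All 8 CreER values are below the brightness limit and the probe set was tested through the arrays without Cre, so this call carries little weight.

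In cultures without Cre, Dlg4 was the 1 member called over time, against 8.16% of all probe sets. It gave 352, 286, 222 and 281 at 60 h and 111, 101, 92.8 and 147 at 36 h, so that every 60 h array was well above every 36 h array (8.8% of all probe sets did not overlap here). The change was 1.22 (SE 0.14, adjusted p = 1.61e-15), and the difference of the time changes, CreER minus no Cre, was −0.93 (SE 0.20, adjusted p = 2.65e-04). Map1b 1421851_at differed between genotypes in the same test, by 0.95 (SE 0.24, adjusted p = 0.00266), with 1 member called higher and 1 lower against 4.24% of all probe sets (1.02% higher, 3.22% lower). The Map1b call was lost with no filter (adjusted p = 0.053). Without Cre this Map1b probe set changed by −0.43 (SE 0.17, adjusted p = 0.0898) and 1450397_at by 0.48 (SE 0.18, adjusted p = 0.0819), so the 2 probe sets of 1 gene moved in opposite directions and neither passed.

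The actin ratio was also set against the change of Dlg4 over time. This ratio of 5′ to 3′ signal, which falls where RNA is degraded or labelling stops short, was 0.773 to 0.891 in cultures without Cre at 60 h and 0.548 to 0.666 at 36 h, the comparison in which Dlg4 rose. In the 8 CreER arrays, where the ratio was 0.716 to 0.882, Dlg4 correlated with it at Pearson r = 0.86 (exact permutation p = 0.00863, adjusted 0.104) and Spearman rho = 0.83 (exact permutation p = 0.0154, adjusted 0.185), adjusted over the 12 tested probe sets of these genes. Without the 2 arrays farthest from the median ratio r was 0.89 (n = 6). The correlation does not pass the adjustment, and 0.523% of all tested probe sets had one at least as high. The permutation took the 8 arrays as exchangeable although they came in groups of 2, so its p-values also take in differences between groups. No r is given without Cre, where the 2 times form separate ranges of the ratio. With the ratio as a covariate the Dlg4 time change without Cre was 0.85 (adjusted p = 0.553), and the differences of time changes were −0.63 for Dlg4 (adjusted p = 0.45) and 0.64 for Map1b 1421851_at (adjusted p = 0.525), none of them called. Without Cre the ratio and time go together, so this fit cannot tell them apart and the lost calls decide nothing. Kif1a, from a list below, lost its time call without Cre in the same fit (limma adjusted p = 1.63e-09, then 0.334). Its change was 0.96 and then 0.97.

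The probe sets of Dpysl3 differed among themselves in the same comparison. Without Cre, 60 h against 36 h, the brightest probe set changed by −0.25 (SE 0.14, adjusted p = 0.237), while 1415877_at rose by 0.87 (SE 0.14, adjusted p = 3.35e-08), averaging 397 ± 34.7 in the 60 h arrays and 213 ± 48.9 in the 36 h arrays (SD, n = 4 each). The third, 1438789_s_at, rose by 0.61 (SE 0.17, adjusted p = 0.00567). The actin ratio rose over the same 2 sets of arrays. Where each probe set lies in its transcript was not analysed here, and the part of RNA quality in these differences was not tested.

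**Figure D4:**
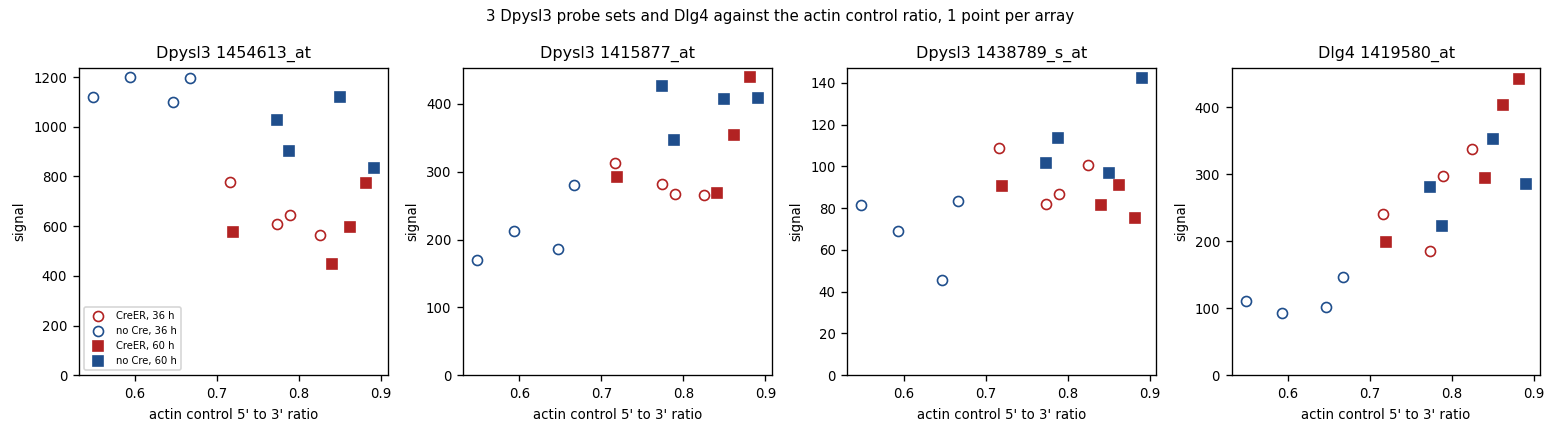
Signal of the 3 tested Dpysl3 probe sets and of Dlg4 against the actin control 5′ to 3′ ratio, 1 point per array, red for CreER and blue for no Cre, open circles for 36 h and filled squares for 60 h. In cultures without Cre, Dlg4 and Dpysl3 1415877_at are higher at 60 h, where the ratio is 0.773 to 0.891, than at 36 h, where it is 0.548 to 0.666, and Dpysl3 1454613_at is not.

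The markers of young neurons were near the bottom of the array's range. Tubb3 gave 10.7 to 18.7 in CreER arrays and 11.4 to 33.7 in arrays without Cre. Dcx gave 7.32 to 30.6 in CreER arrays and 4.90 to 23.9 without Cre on the brightest of its 4 probe sets. Stmn2 gave 1.86 to 25.2 in CreER arrays and 1.29 to 34.4 without Cre. None of the 3 was tested, the arrays of the genotypes overlapped for each, and a signal this low bounds the level without showing that the gene is silent. With no filter, their changes with 4OH-TM in CreER cultures were 0.02 for Tubb3 (SE 0.16), −0.26 for Dcx (SE 0.21) and 0.05 for Stmn2 (SE 0.29).

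Other genes of the same biology were read from 3 lists. Of 35 microtubule, neurofilament and growth cone genes, 25 were tested, and 2 rose and 0 fell with 4OH-TM in CreER cultures over both times, where 10.7% of all probe sets were called. The 2 were Kif1a, a motor that carries synaptic vesicle precursors (0.49, SE 0.14, adjusted p = 0.0103), and Mapre3, a microtubule plus-end protein (0.48, SE 0.14, adjusted p = 0.0121). The median change of the list was 0.00, against −0.07 over all probe sets tested. After median scaling the counts were 4 higher and 2 lower, with 28% of all probe sets called. Under vehicle 4 were higher and 6 lower in CreER cultures than without Cre, with Stmn3 at 0.75, Tubb2b at −0.73 and Tubb4a at −0.72, around a list median of −0.01 against −0.14 over all, where 34.8% of all probe sets were called.

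Of 28 synaptic vesicle and scaffold genes, 18 were tested, and 2 rose and 2 fell with 4OH-TM in CreER cultures over both times (10.7% of all probe sets were called). The vesicle protein Sv2a averaged 186 ± 53.3 with 4OH-TM and 102 ± 18.5 with vehicle (SD, n = 4 each), a change of 0.75 (SE 0.15, adjusted p = 5.39e-05). Dlgap4, a binding partner of PSD-95, rose by 0.54 (adjusted p = 0.00196), while Gphn, the scaffold of inhibitory synapses, changed by −0.47 (adjusted p = 0.0115) and Homer1, a postsynaptic adaptor, by −0.43 (adjusted p = 0.0469). The list median was 0.10 against −0.07 over all, and after median scaling 7 were higher and 2 lower, when 11% of all probe sets were called higher and 16.9% lower. Under vehicle 5 were higher and 5 lower in CreER cultures, against 7.73% and 27.1% of all probe sets. Gria2, an AMPA receptor subunit, had the largest of these differences at −1.28 (SE 0.14, adjusted p = 1.37e-18). All 10 kinases or kinase subunits that act on tau were tested. Of these, 0 rose and 1 fell with 4OH-TM in CreER cultures, Dyrk1a at −0.45 (SE 0.14, adjusted p = 0.0177), with a list median of 0.00. Under vehicle 0 were higher and 3 lower in CreER cultures, Cdk5r1 (an activator of Cdk5) at −0.66, Mark3 at −0.43 and Mark2 at −0.38, a share close to the 27.1% of all probe sets called lower. None of the 3 lists had a member called with 4OH-TM in cultures without Cre, where 0.214% of all probe sets were called. For the difference of responses, CreER minus no Cre, 0 members of the 3 lists were called as deposited, against 1.88% of all probe sets. The list changes were thus not shown to be specific to CreER cultures.

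The genes most like the members with the widest range of group means were found by Pearson r over the 16 arrays, given with r within the 8 CreER and the 8 other arrays, because the genotypes form separate sets and share their replicates and array brightness. For Map1b 1421851_at they were Ints6 (0.99, within 0.75 and 0.85), Pcdhb20 (0.99, within 0.81 and 0.83) and Gja1 (0.99, within 0.70 and 0.81). For Map1b 1450397_at they were Gprc5b (0.97), St3gal6 (0.97) and Mmp16 (0.96), with 0.32 to 0.55 within CreER arrays and 0.64 to 0.79 within the others. For Syt1 they were Rin2 (0.98, within 0.85 and 0.94), Pdgfc (0.97, within 0.80 and 0.76) and Dapk1 (0.97, within 0.94 and 0.35). For Mapt 1424719_a_at they were Sod3 (0.96, within 0.97 and 0.53), Gramd4 (0.95, within 0.89 and 0.57) and Fcgrt (0.94, within 0.91 and 0.82). After median scaling these values were 0.95 to 0.99. Among the members, the 2 tested Mapt probe sets had r = 0.84 within CreER arrays and 0.64 within the others.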

How the data were processed

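Biotin-labelled total RNA of 16 cultures was read on Affymetrix arrays. Each probe set has 1 deposited intensity on each array, a linear signal made with MAS5 per the submitters' processing notes; its version and scaling target are not given in the sources used here. Samples were grouped by their titles. Symbols came from the platform annotation: of 22626 probe sets without 64 controls, 20380 had 1 symbol, 691 several and 1555 none.

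All 16 arrays entered 1 limma fit (limma 3.58.1, R 4.3.3) of 8 group means on log2(signal + 16), with trended empirical Bayes moderation, each of 11 comparisons tested two-sided and adjusted on its own (Benjamini-Hochberg). Probe sets below the 40th percentile of mean log2 signal (6.07, a signal of 51.1) were not tested, which left 13576. Residual degrees of freedom were 8 and the prior ones infinite, so a probe set's spread was set by the trend over probe sets of like brightness. Tested on simulated data for 4OH-TM in CreER cultures over both times (13576 probe sets), the fit called 45 of 67 probe sets given a 1.5-fold change, all 67 given a 2-fold change and all 66 given a 3-fold change, beside 1 false call. The simulated noise was normal and took its spread from this same fit, so these counts do not measure the error rate in the real data. There, the prior degrees of freedom were 8.27 after median scaling and 8.14 with no filter.

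The members, lists and tests were chosen with earlier results of these data known. Named genes were the members, other probe sets of a member where they disagreed, list members with the smallest p, and the 3 probe sets most correlated with each of 4 member probe sets. The time difference between genotypes was added after the data were seen. Replicate numbers shared by the titles were not used to pair the samples. Over 28 pairs of groups, deviations of same-numbered arrays correlated at r = −0.18 to 0.41, 8 over 0.1 and 9 under −0.1. Between 4OH-TM and vehicle, r was 0.14 at 36 h and −0.07 at 60 h in CreER cultures. Without Cre it was 0.41 and −0.09. Whether the samples were paired was thus not settled. Array number limits the precision. Scanner files and presence calls were not used here. Alternatives were scaling, pseudocount, filter, trend, probe set choice, the actin ratio as a covariate, a replicate block, fits on fewer arrays and leaving out each array.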

Additional observations from a re-analysis of the deposited data

Results flagged for a closer look

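A test of the difference between 2 effects was passed for 4 results. The Syt1 response to 4OH-TM differed between CreER cultures and cultures without Cre by 0.93 on the log2 scale (SE 0.23, limma adjusted p = 0.00632), higher in 4 of 4 treated CreER arrays and lower in 4 of 4 treated arrays without Cre at matched times. The closest CreER arrays at 36 h gave 47.3 with 4OH-TM and 47.1 with vehicle. This Syt1 call was lost with no filter, and 1.88% of all probe sets were called in the test. The Dlg4 response to 4OH-TM in CreER cultures differed between 60 h and 36 h by −1.31 (SE 0.29, adjusted p = 0.00119), with treated arrays below both vehicle arrays at 60 h and above both at 36 h. After either scaling, with no filter or with the actin ratio as a covariate, this Dlg4 call was lost. The change of Map1b 1421851_at from time, 60 h against 36 h, differed between CreER cultures and cultures without Cre by 0.95 (SE 0.24, adjusted p = 0.00266), and that of Dlg4 by −0.93 (SE 0.20, adjusted p = 2.65e-04). With no filter the Map1b call was lost (adjusted p = 0.053), and its CreER signals all lay below the brightness limit. The actin ratio was higher at 60 h than at 36 h in cultures without Cre, beside these last 2. It also separated the arrays of the Dlg4 response in the same directions as Dlg4, higher with 4OH-TM at 36 h and lower at 60 h. Groups of 2 arrays are too small to test a single array as an outlier.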

How the results depend on the processing

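Of single results under settings other than leaving out an array, 869 kept their status as called or not called, 34 lost the call, 36 gained one and 0 reversed. Leaving out 1 array gave 820, 35, 9 and 0. A change of sign counted as a reversal only where the main or the other value was called. The kept results can therefore include changes of sign between uncalled values. Either scaling raised the share of all probe sets called, to 28% (median) and 32.4% (quantile) for 4OH-TM in CreER cultures over both times, 15.8% and 17.3% at 36 h, 19.3% and 24.5% at 60 h, 12% and 14.8% for the difference between genotypes and 45.3% and 27.2% for time without Cre, so higher counts there move with the whole array. The counts below are of the 9 tested probe sets, and the cause of a change was not tested except where fewer arrays or more probe sets enter by construction. With 4OH-TM in CreER cultures over both times, 4 were called, against 1 with no filter, 2 in a fit on the compared arrays alone, and 1 to 3 without single arrays. At 36 h, 1 was called, against 2 after median scaling, quantile normalization, quantile normalization with the replicate block, and on the compared arrays alone, and 0 with no filter. At 60 h, 2 were called, against 6 after median scaling, after quantile normalization and with the replicate block on quantile values, 1 with the replicate block, 0 with no filter or on the compared arrays alone, and 0 to 4 without single arrays. The difference of responses between genotypes had 1 call, against 2 after median scaling and after quantile normalization with or without the replicate block, 0 with no filter, and 1 to 2 without single arrays. The difference of CreER responses between times had 1, against 0 after either scaling, with the replicate block on quantile values, with no filter or with the actin ratio, and 0 to 1 without single arrays. Time in CreER cultures gave 2, against 0 with no filter, 1 on the compared arrays alone, and 0 to 2 without single arrays. Time without Cre gave 1, against 5 after median scaling, 3 after quantile normalization with or without the replicate block, with no trend or on the compared arrays alone, 0 with the actin ratio, and 1 to 2 without single arrays. The time difference between genotypes gave 2, against 0 with no filter or the actin ratio. Without Cre the actin ratio and time cannot be told apart, so the counts of 0 for time with that ratio decide nothing. The 9 calls of each genotype comparison were 8 to 9 under vehicle and 9 to 9 under 4OH-TM without single arrays, and the count of 0 for 4OH-TM without Cre did not move. The replicate block changed a count by over 1.5 times only where given here. Median scaling moved the median of all probe sets by 0.12 at 60 h, 0.15 for the difference of CreER responses between times, 0.17 for genotype under vehicle and 0.13 under 4OH-TM. Dim probe sets, among them Tubb3, Dcx, Stmn2 and Map1b in CreER arrays, limit what can be seen.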
